A study of Mus musculus with 6 samples.

Results

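The genes described here are the secreted ligands, receptors and secreted regulators of the Wnt pathway, measured in mouse hearts on day 7 after myocardial infarction (MI). They were chosen by a rule on names, with earlier results of these data known. They are the protein-coding genes called Wnt, Fzd, Sfrp, Dkk, Rspo, Lgr4 to Lgr6, Axin1 or Axin2, plus Lrp5, Lrp6, Wif1 and Frzb. The rule found 50 genes among the 54532 genes of the expression table, of which 22046 are protein coding. By role they were 19 Wnt ligands, 10 Frizzled receptors, 2 LRP co-receptors, 6 secreted antagonists that bind Wnt proteins, 4 Dickkopf proteins, 4 R-spondins, 3 R-spondin receptors and 2 Axins.

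The samples were 3 hearts from wild-type (WT) mice and 3 from mice labelled as knockouts of Crlf2, the gene of the receptor for thymic stromal lymphopoietin (TSLPR), an epithelial and stromal cytokine. All 6 mice were C57BL/6 and had the left anterior descending coronary artery tied off permanently 7 days before collection, so no unligated heart was compared. Poly(A) RNA of peri-infarcted and infarcted tissue was sequenced, and 18508646 to 19682428 fragments per library fell on listed genes. The study's methods give young adult males for the purchased WT mice and no age or sex for the Crlf2-/- mice, which were made by another supplier on C57BL/6J, so supplier and genotype cannot be told apart. The comparison asks which transcripts differ when TSLPR signalling is missing in the infarcted heart.

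Wnt proteins are secreted lipid-modified ligands that bind Frizzled receptors together with LRP5 or LRP6. This stabilises β-catenin, which with TCF/LEF factors switches on target genes, while some ligands act through Frizzleds and ROR receptors without β-catenin. Secreted Frizzled-related proteins (Sfrp genes and Frzb) and Wif1 bind the ligands outside the cell, most Dickkopf proteins block the LRP co-receptors, and R-spondins acting on LGR receptors keep Frizzleds at the cell surface. Axins are the scaffold of the complex that degrades β-catenin, and Axin2 is itself a widely used target gene of the pathway. In the injured heart, Wnt signalling is known mainly for its part in fibroblasts, the epicardium and scar formation.

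Crlf2 itself, the targeted gene, was still read in all 3 libraries labelled as knockouts. It had 917, 813 and 707 fragments in the WT libraries and 437, 651 and 667 in the Crlf2-/- libraries. As a level this was 24.4 ± 2.58 against 17.3 ± 3.49 FPKM (SD, n = 3 each). FPKM counts fragments adjusted for gene length and library size, and all levels given here are FPKM after scaling by the trimmed mean of M values. The log2 fold change of Crlf2-/- over WT was -0.51 (SE 0.16), with an adjusted p of 0.527 in limma with Benjamini-Hochberg adjustment over 15520 genes. The groups did not overlap, but values per gene do not show which part of a transcript remains, so the knockout was not verified here and Crlf2-/- denotes the libraries with that label.

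Markers of the tissue were checked next. Actc1, the cardiac actin, stood at 477 to 1382 FPKM, whereas 5 retina markers summed to at most 0.110 FPKM in any library, with Rcvrn at 0 in all 6 (the extraction text among the labels speaks of another tissue, and the tissue label says heart). Several marker lists differed between the groups in mean summed level, though no single marker had a limma adjusted p below 0.150. The summed level of 11 cardiomyocyte markers ran from 1291 to 2299 FPKM in WT and from 858 to 1628 in Crlf2-/- libraries, so these sums overlapped. All 11 had a negative log2 fold change, 4 of them with an unadjusted limma p under 0.05, where 3.24% of all tested genes were lower. Their smallest adjusted p was 0.397. Summed endothelial markers ran from 175 to 195 in WT and from 155 to 169 in Crlf2-/-, without overlap. Of the 8 endothelial markers, 6 had a negative and 2 a positive log2 fold change. The largest in size was -0.68 for Fabp4, at 27.2 to 36.9 FPKM in WT and 15.7 to 24.3 in Crlf2-/-. Summed T cell markers (11 genes) ran from 10.7 to 15.6 in WT and from 6.00 to 8.95 in Crlf2-/-, also without overlap. Of these 11, 9 had a negative log2 fold change, 7 of them with an unadjusted limma p under 0.05. The other 2 were positive, Cd4 at 0.03 and Tcf7 at 0.02. Summed smooth muscle and pericyte markers ran higher, from 728 to 825 in WT and from 865 to 917 in Crlf2-/-. Acta2 held most of that sum, at 495 to 617 in WT and 649 to 723 in Crlf2-/-. Of these 7 markers, 4 had a positive and 3 a negative log2 fold change. Fibroblast and matrix markers had overlapping sums, from 6892 to 8171 and from 8152 to 8561. The part of these shifts in the values below was not tested. In bulk tissue, fewer cells of a type and less RNA per cell cannot be told apart.

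The infarcted heart carried far more transcript of secreted Wnt antagonists than of Wnt ligands. Over the 6 libraries the level of Sfrp2 averaged 362 FPKM (range 305 to 420), that of Sfrp1 242 (219 to 273), that of Frzb 65.7 and that of Dkk3 58.9. Sfrp2, Sfrp1 and Frzb together made up 73.4 to 78.4% of the summed level of all 50 genes, and Sfrp2 lay at percentile 99.6 of all tested genes by level. The next genes in the order were receptors, led by Fzd2 at 22.7, Fzd1 at 22.4, Fzd4 at 14.2, Fzd8 at 11.2 and Lrp5 at 10.8. The most abundant ligand, Wnt4, averaged 3.67 FPKM. In all, 9 genes averaged at least 10 FPKM, 13 lay between 1 and 10, 23 were read at under 1, and 5 (Wnt3, Wnt3a, Wnt8a, Dkk1 and Dkk4) had no fragment in any library.

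Neighbours in this order seldom had separate ranges over the 6 libraries. Sfrp2 was above Sfrp1, and Sfrp1 above Frzb, in all 6. The range of Dkk3 lay wholly above that of Fzd2, the range of Fzd1 wholly above that of Fzd4, and the range of Wnt5b wholly above that of Rspo3. Frzb and Dkk3 overlapped, as did Fzd2 and Fzd1, and the 4 most abundant ligands (Wnt4, Wnt11, Wnt5a and Wnt9a) overlapped with one another.

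**Figure D1:**
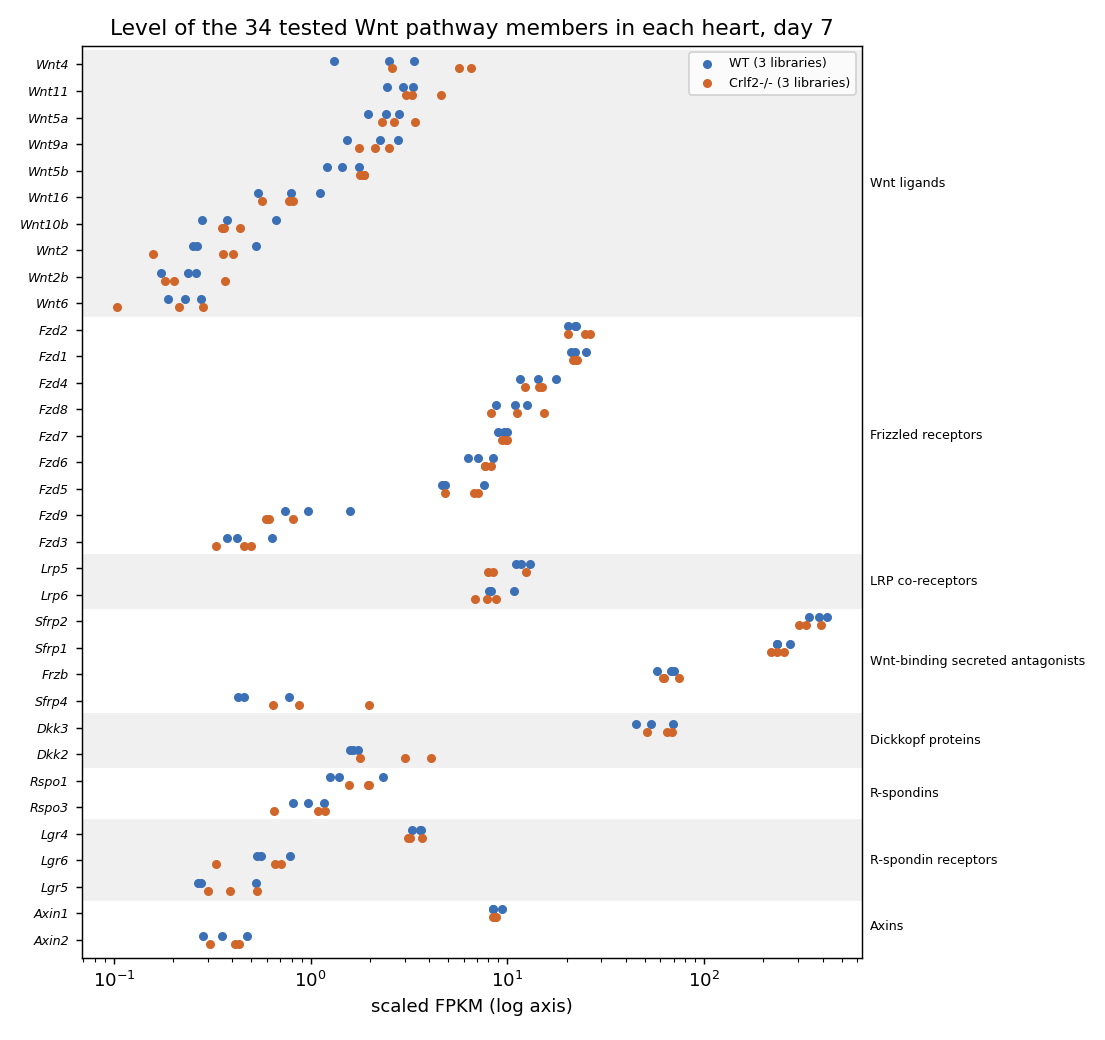
Level of the 34 tested genes in each library, grouped by role, on a logarithmic axis of scaled FPKM. Each point is one heart, blue for WT and orange for Crlf2-/- (3 each). Sfrp2 and Sfrp1 lie above 200 FPKM in every heart, whereas the ligands all lie below 10, and for most genes the points of both groups lie among each other.

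Summed by role, none of the 8 classes separated WT from Crlf2-/- hearts. Ligands summed to 11.1, 16.7 and 13.3 FPKM in WT and to 19.3, 17.3 and 15.4 in Crlf2-/- libraries, or 13.7 ± 2.85 against 17.3 ± 1.96 (SD, n = 3 each). The lowest Crlf2-/- library lay below the highest WT library. Frizzleds summed to 93.6 ± 7.43 in WT and 96.5 ± 7.63 in Crlf2-/-. The LRP co-receptors summed to 21.0 ± 2.50 and 17.5 ± 2.77, and the Wnt-binding antagonists to 695 ± 63.5 and 646 ± 58.1. Each of these pairs overlapped between groups. Dickkopf genes summed to 57.7 ± 12.2 and 64.6 ± 10.3, R-spondins to 2.68 ± 0.455 and 2.85 ± 0.249, R-spondin receptors to 4.49 ± 0.348 and 4.31 ± 0.392, and Axins to 9.16 ± 0.565 and 9.01 ± 0.135. The summed antagonists exceeded the summed ligands by a ratio of 57.2, 41.3 and 57.1 in WT and of 31.0, 36.2 and 46.2 in Crlf2-/- hearts. These ratios overlapped too, since the third Crlf2-/- heart exceeded the second WT heart. No p is given for a sum over chosen genes.

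**Figure D2:**
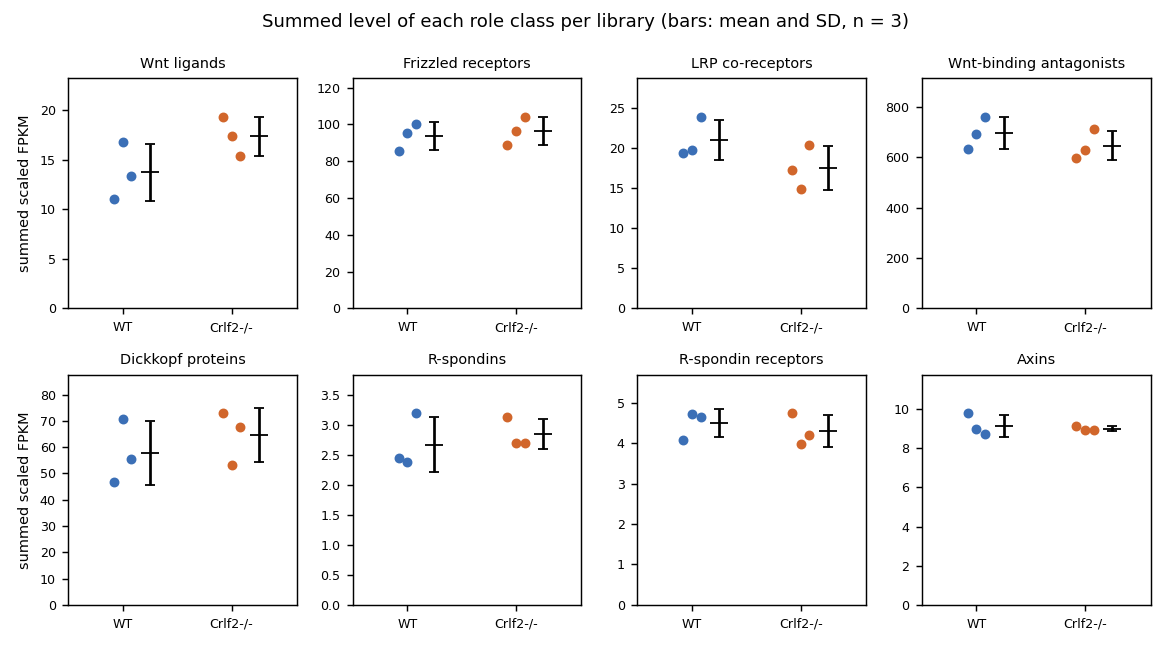
Summed scaled FPKM of the genes of each role class in each library, on linear axes that start at 0. Points are libraries, WT left and Crlf2-/- right, and the bar beside them is the mean and SD of 3. The ligand panel shows the Crlf2-/- points at 15.4 to 19.3 against 11.1 to 16.7 for WT, and the points of the 2 groups overlap in all 8 panels.

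Tested gene by gene in limma, no Wnt pathway member was called different. Calls required that the adjusted p did not exceed 0.05 and that the log2 fold change was 0.5 or more in either direction, which 0.0129% of the 15520 tested genes reached. Of the 50 members 34 had enough fragments to be tested, 0 were called by limma, and their adjusted p ran from 0.637 to 0.997. At an unadjusted p under 0.05, 2 members (5.88%) were higher in Crlf2-/- hearts, Wnt4 and Dkk2, where 3.31% of all tested genes were, and 0 were lower, where 3.24% of all were. By voom 1 member and by a negative binomial test with a t reference 3 members had such a p, with 0 called by either. With a normal reference the negative binomial test called 1 member, Dkk2. Among the tested members, groups did not overlap, with Crlf2-/- higher, for 2 (Dkk2 and Wnt5b), or 5.88% where 5.57% of all genes did so, and with Crlf2-/- lower for 0, where 6.15% of all did. Of the members below the filter, Fzd10 (higher) and Wnt1 (lower) also had groups that did not overlap. These shares are near those of all genes.

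Equal numbers of members leaned each way. The log2 fold change was positive for 17 and negative for 17, with a median of 0.01 beside a median of -7.56e-06 over all tested genes. For 10 members (29.4%) the whole 95% interval of the log2 fold change lay within 0.5 of 0, as it did for 47.7% of all tested genes. For the other 24 the interval reached a change of 0.5 or more, so a difference of that size was not detectable as present or absent with 3 hearts a group.

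**Figure D3:**
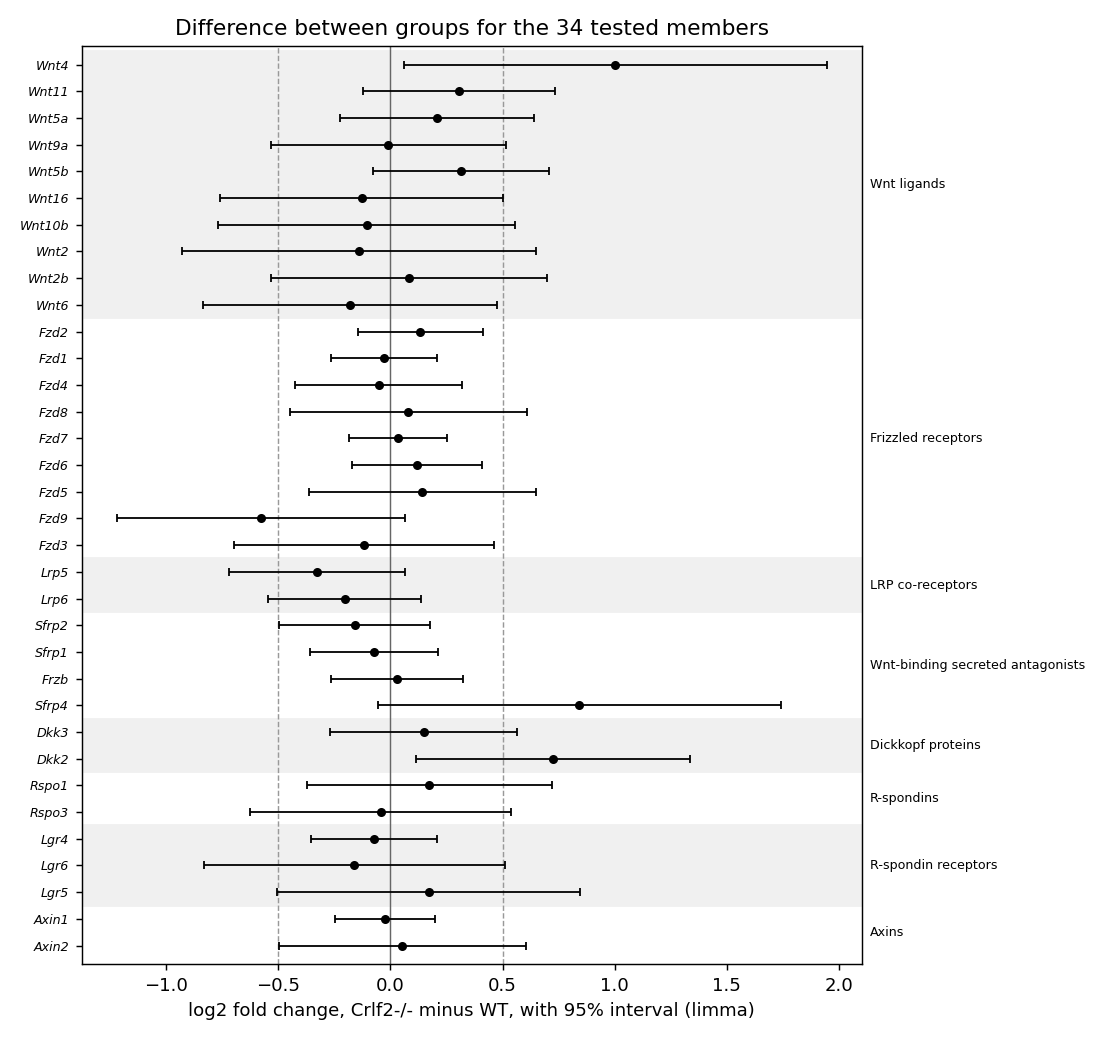
Log2 fold change of Crlf2-/- over WT for the 34 tested genes, grouped by role, with the 95% interval from limma. The solid line marks 0 and the dashed lines the fold threshold of 0.5 in each direction. The intervals of Wnt4 and Dkk2 alone leave out 0 before adjustment for multiple tests, and those of Fzd1, Fzd7 and Axin1 are among the narrowest.

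Wnt4, a ligand of kidney, gonad and epithelial development, had the largest log2 fold change of the 10 tested ligands. Its level was 1.32, 3.36 and 2.51 FPKM in WT hearts and 6.54, 5.68 and 2.59 in Crlf2-/- hearts. The first and second Crlf2-/- hearts were higher than every WT heart, whereas the third lay within the WT range. The means were 2.40 ± 1.02 and 4.94 ± 2.07 (SD, n = 3), and the log2 fold change was 1.00 (SE 0.41, 95% interval 0.06 to 1.95). The unadjusted limma p was 0.0395 and the adjusted p 0.728, and an exact two-sided permutation test of the levels gave p = 0.2, where 0.1 is the smallest that 3 against 3 allow. Without the first Crlf2-/- heart the log2 fold change was 0.75 (unadjusted limma p 0.126), and without the first WT heart it was 0.64 (0.142).

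The summed level of 8 epicardial and mesothelial markers varied beside it, at 11.7, 24.5 and 24.8 FPKM in WT and 37.9, 14.9 and 20.7 in Crlf2-/- hearts. Among them Wt1, a transcription factor of the epicardium, read 1.02, 2.40 and 1.54 in WT and 3.67, 2.55 and 1.31 in Crlf2-/-. Of the 8 markers, 7 had a positive log2 fold change and 1, Krt18, a negative one. Krt18 read 2.88, 7.93 and 5.06 in WT and 3.54, 1.72 and 6.27 in Crlf2-/-. Wnt4, the marker sum and Wt1 were all lowest among WT hearts in the first and highest among Crlf2-/- hearts in the first. In the second Crlf2-/- heart, Wnt4 was high and the marker sum low. The part of this cell layer in the Wnt4 values was not tested. As a share of all ligand transcript, Wnt4 took 11.9, 20.1 and 18.8% in WT and 33.8, 32.7 and 16.9% in Crlf2-/- hearts.

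Wnt5b, a ligand of β-catenin-independent signalling and a close relative of Wnt5a, read 1.45, 1.77 and 1.21 FPKM in WT and 1.87, 1.78 and 1.86 in Crlf2-/- hearts. The groups did not overlap, by a margin of 1.77 against 1.78. The log2 fold change was 0.32 (SE 0.17), with a limma adjusted p of 0.855 and an exact two-sided permutation p of 0.1. The gene model of Fbxl14 lies on the opposite strand within that of Wnt5b and held 4081 fragments over the 6 libraries against 592 for Wnt5b. How strand was handled in counting is not given in the sources used here, so reads of the 2 genes may not be told apart where they overlap, and the log2 fold change of Fbxl14 was 0.01.

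Wnt11 and Wnt5a, both also known for β-catenin-independent signalling, were the ligands next in level to Wnt4. Wnt11 read 2.95, 3.31 and 2.44 FPKM in WT and 3.07, 3.26 and 4.60 in Crlf2-/- hearts, with a log2 fold change of 0.31 (SE 0.19). The third Crlf2-/- heart alone lay above the WT range. Wnt5a read 1.97, 2.82 and 2.41 in WT and 3.40, 2.67 and 2.31 in Crlf2-/- hearts, with a log2 fold change of 0.21 (SE 0.19). Here the first Crlf2-/- heart alone lay above the WT range. The limma adjusted p was 0.889 for Wnt11 and 0.962 for Wnt5a.

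The other tested ligands were Wnt9a at a mean of 2.15 FPKM, Wnt16 at 0.767 and Wnt10b, Wnt2, Wnt2b and Wnt6 at 0.216 to 0.414. Their log2 fold changes lay between -0.18 and 0.08, each with groups that overlapped. Of the 9 ligands not tested, 3 had no fragment and 6 averaged at most 0.0811 FPKM. Ligand genes that lie side by side differed in level. On chromosome 11, Wnt9a averaged 2.15 FPKM while Wnt3a, whose gene model ends 16.2 kb away, had no fragment, and Wnt9b averaged 0.0811 with Wnt3, 24.3 kb away, at no fragment. On chromosome 15, Wnt10b averaged 0.414 and Wnt1, 11.7 kb away, 0.0541. On chromosome 1, Wnt6 averaged 0.216 and Wnt10a, 6.19 kb away, 0.0272.

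Wnt1, the founding member of the family, was too low to be tested. It had 2, 11 and 4 fragments in the WT libraries and 0 in each Crlf2-/- library. A floor of 3 fragments over the 3 Crlf2-/- libraries lay 5.72-fold below the observed WT mean, with 11 of the 17 WT fragments in the second heart. With no filter on low genes its unadjusted limma p was 0.0236 and its adjusted p 0.882. This floor covers counting error of the Crlf2-/- libraries only, and not the error of the WT mean, so the ratio is no firm bound.

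Of the 10 Frizzled receptors 9 were tested, and none of these passed the test between groups. Fzd2 read 22.3, 22.1 and 20.3 FPKM in WT and 20.3, 24.9 and 26.2 in Crlf2-/- hearts (log2 fold change 0.13, SE 0.12). Fzd1 read 21.0, 25.1 and 22.0 in WT and 22.3, 22.7 and 21.5 in Crlf2-/- hearts (-0.03, SE 0.10). All 3 Crlf2-/- values of Fzd1 lay within the WT range. Fzd4, the receptor also known for Norrin in vessels, read 11.6, 14.3 and 17.7 in WT and 14.4, 12.3 and 14.9 in Crlf2-/- hearts (-0.05, SE 0.16), again within the WT range. Fzd1 and Fzd2 made up 42.3 to 50.6% of Frizzled transcript. The interval lay within 0.5 of 0 for 5 of the 9 tested Frizzleds, and for Fzd7, at a mean of 9.61 FPKM, it ran from -0.18 to 0.25.

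Fzd9 had the largest log2 fold change in size of the 9 tested Frizzleds and a low level. It read 1.58, 0.974 and 0.738 FPKM in WT and 0.615, 0.595 and 0.816 in Crlf2-/- hearts. The first WT heart stood highest and the third WT heart lay within the Crlf2-/- range. The log2 fold change was -0.58 (SE 0.28), with a limma adjusted p of 0.816 and an exact two-sided permutation p of 0.2. Without the first WT heart it was -0.31. Fzd5, Fzd6 and Fzd8 had log2 fold changes of 0.14, 0.12 and 0.08, and Fzd3 of -0.12. Fzd10 was not tested. Its fragments numbered 0, 0 and 1 over the WT hearts and 3, 22 and 3 over the others, so 22 of the 28 fragments of that group came from the second heart.

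The LRP co-receptors, which pair with a Frizzled to pass on the β-catenin signal, were both lower on average in Crlf2-/- hearts without passing the test. Lrp5 read 11.0, 11.7 and 13.0 FPKM in WT and 8.49, 8.01 and 12.4 in Crlf2-/- hearts. The first and second Crlf2-/- hearts lay below every WT heart and the third within the WT range. The log2 fold change was -0.33 (SE 0.17), with a limma adjusted p of 0.834. Leaving out each heart in turn gave -0.52 (unadjusted limma p 0.00402, adjusted p 0.410) without the third Crlf2-/- heart and -0.21 (unadjusted p 0.28) without the second, the ends of the range. Lrp6 read 8.28, 8.09 and 10.8 in WT and 8.74, 6.82 and 7.91 in Crlf2-/- hearts (-0.20, SE 0.15, adjusted p 0.934), and the groups overlapped.

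Among the Wnt-binding antagonists, the 3 abundant ones differed little. Sfrp2, a product of scar fibroblasts, read 341, 385 and 420 FPKM in WT and 305, 330 and 394 in Crlf2-/- hearts. The means were 382 ± 39.5 and 343 ± 46.0 (SD, n = 3), and the log2 fold change was -0.16 (95% interval -0.50 to 0.18, limma adjusted p 0.965). Sfrp1 read 235, 236 and 273 in WT and 219, 234 and 254 in Crlf2-/- hearts, a log2 fold change of -0.07 (-0.36 to 0.21). For both genes the third heart was the highest of each group. Frzb, also named Sfrp3, read 57.4, 69.9 and 67.8 in WT and 74.2, 62.8 and 61.9 in Crlf2-/- hearts, a log2 fold change of 0.03 (-0.27 to 0.32). All 3 of these intervals lay within 0.5 of 0. Sfrp2 exceeded Sfrp1 by a ratio of 1.39 to 1.63 in the 6 hearts.

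Sfrp4 was the lowest of the 4 tested members of this class, and its values varied between hearts. It read 0.459, 0.775 and 0.427 FPKM in WT and 0.870, 1.97 and 0.640 in Crlf2-/- hearts. The second Crlf2-/- heart stood above all others, and the third lay within the WT range. The log2 fold change was 0.84 (SE 0.39), with a limma adjusted p of 0.796 and an exact two-sided permutation p of 0.2. Without that second heart it was 0.41 (unadjusted limma p 0.21). Of 5 atrial markers, 2 stood apart in the same heart. Myl4, a myosin light chain, read 6.94 FPKM there and 0.451 to 0.682 in the other 5, and Sln, the regulator sarcolipin, 4.95 there and at most 0.0676 elsewhere. The other 3 did not stand apart in that heart, where Myl7 read 0.0723 (0 to 0.539 elsewhere), Bmp10 0 (at most 0.0204 elsewhere) and Nppa 218 (141 to 415 elsewhere). The part of these transcripts in the Sfrp4 values was not tested. Sfrp5 and Wif1 were not tested and averaged 0.0271 and 0.0634 FPKM.

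Dkk2, a Dickkopf protein that binds LRP5 and LRP6, had the smallest unadjusted limma p of the 34 tested members. It read 1.74, 1.65 and 1.58 FPKM in WT and 4.07, 1.78 and 3.02 in Crlf2-/- hearts, from 128 to 148 fragments per WT library and 155 to 332 per Crlf2-/- library. All 3 Crlf2-/- hearts lay above the 3 WT hearts, the second of them by 1.78 against 1.74. The means were 1.66 ± 0.0808 and 2.96 ± 1.15 (SD, n = 3), and the log2 fold change was 0.73 (SE 0.27, 95% interval 0.12 to 1.34). The unadjusted limma p was 0.0252, the adjusted p 0.637 and the exact two-sided permutation p 0.1, the smallest possible. Without the first Crlf2-/- heart the log2 fold change was 0.47 (unadjusted limma p 0.0815), and without the second it was 1.04 (0.000566, adjusted p 0.288).

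Dkk3, which differs from the other Dickkopf proteins in not blocking LRP co-receptors, was the fourth most abundant member. It read 45.0, 69.1 and 54.0 FPKM in WT and 68.8, 51.3 and 64.8 in Crlf2-/- hearts. The second WT heart was the highest of all 6, and the log2 fold change was 0.15 (SE 0.18, limma adjusted p 0.988). Dkk1, the best-known inducible inhibitor of the family, and Dkk4 had 0 fragments in every library.

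**Figure D4:**
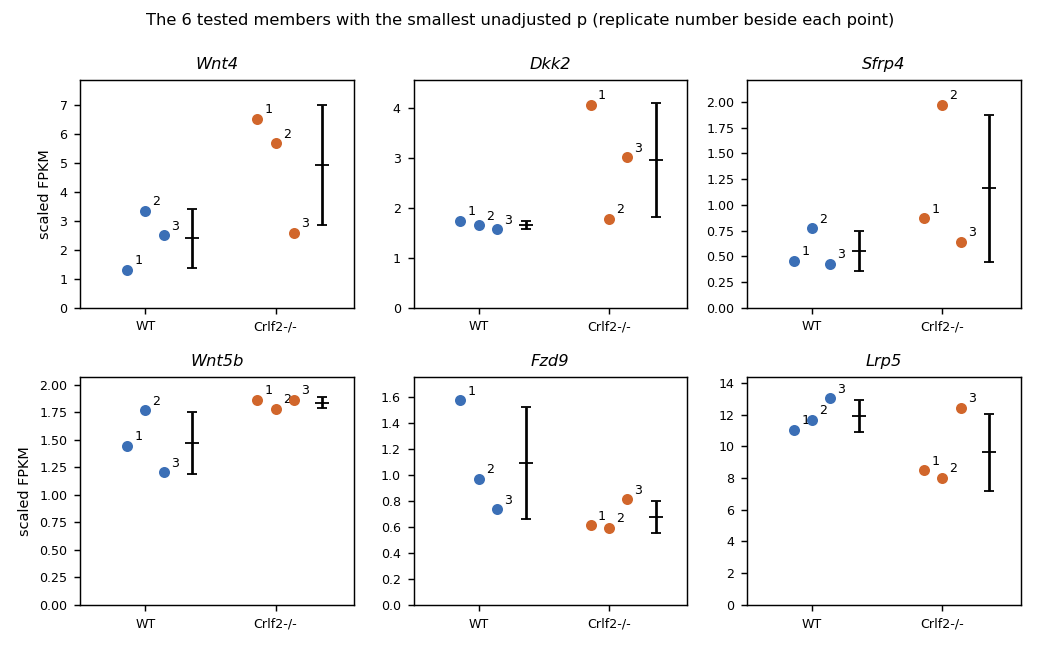
Scaled FPKM of Wnt4, Dkk2, Sfrp4, Wnt5b, Fzd9 and Lrp5, the 6 tested genes with the smallest unadjusted p, in each library on linear axes from 0. Numbers beside points are replicate numbers and bars are the mean and SD of 3. The groups overlap for Wnt4, Sfrp4, Fzd9 and Lrp5, and for Dkk2 and Wnt5b the lowest Crlf2-/- heart lies just above the highest WT heart (1.78 against 1.74 and 1.77).

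R-spondins, their receptors and the Axins gave no difference beyond the spread between hearts. Rspo1 read 1.26, 1.39 and 2.34 FPKM in WT and 1.95, 1.56 and 1.98 in Crlf2-/- hearts (log2 fold change 0.17, SE 0.24), and Rspo3, the R-spondin of endothelium, averaged 0.979 (-0.04, SE 0.25). Rspo2 averaged 0.0362 FPKM and was not tested. Lgr4, the widely expressed R-spondin receptor, read 3.28, 3.63 and 3.61 in WT and 3.70, 3.13 and 3.19 in Crlf2-/- hearts (-0.07, SE 0.12). Its interval, -0.35 to 0.21, lay within 0.5 of 0. Lgr6 averaged 0.595 (-0.16, SE 0.29) and Lgr5, known from intestinal stem cells, 0.382 (0.17, SE 0.29).

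Axin2, the pathway's own target gene, was near its level in WT hearts but imprecisely measured. It read 0.356, 0.472 and 0.282 FPKM in WT and 0.413, 0.434 and 0.308 in Crlf2-/- hearts, from 34 to 57 fragments per library. All 3 Crlf2-/- values lay within the WT range, and the log2 fold change was 0.05 (95% interval -0.50 to 0.60, limma adjusted p 0.996). Axin1, the constitutive scaffold, averaged 8.71 FPKM with a log2 fold change of -0.03 (-0.25 to 0.20), an interval within 0.5 of 0.

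Promoter sequence is shown for the members whose differences were largest against their error, Wnt4 and Dkk2, and for Wnt11, the second ligand by level. Windows of 250 bases before the transcript start were taken from RefSeq for GRCm38.p6, where 32 of the 50 members had 35 windows. The bases end just before the gene start in the deposited table, on the plus strand in all 3 cases. Capitals mark TATAAA, the letters of a TATA box, and ATCAAAG, the reverse complement of CTTTGAT, letters bound by TCF/LEF factors. For Wnt4 the stretch is chr4:137277385-137277488, the 104 bases of its window that precede the gene start, for Dkk2 chr3:132085042-132085291 and for Wnt11 chr7:98834862-98835111.
Wnt4: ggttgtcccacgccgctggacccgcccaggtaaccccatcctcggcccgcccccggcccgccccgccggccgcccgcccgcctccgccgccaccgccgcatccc
Dkk2: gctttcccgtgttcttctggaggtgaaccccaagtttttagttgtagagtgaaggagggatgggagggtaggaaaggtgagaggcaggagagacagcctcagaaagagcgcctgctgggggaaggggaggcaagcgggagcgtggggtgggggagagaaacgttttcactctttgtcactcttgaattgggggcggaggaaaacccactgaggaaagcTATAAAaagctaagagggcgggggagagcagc
Wnt11: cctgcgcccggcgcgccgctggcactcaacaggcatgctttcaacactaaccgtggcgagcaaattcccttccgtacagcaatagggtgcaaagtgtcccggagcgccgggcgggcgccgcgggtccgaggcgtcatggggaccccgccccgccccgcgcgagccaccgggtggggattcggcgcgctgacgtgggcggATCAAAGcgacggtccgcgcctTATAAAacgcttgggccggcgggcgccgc

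On either strand, CTTTGAT was found in windows of 2 members, Wnt11 and Wnt5b, and in 3.21% of all 32851 windows. TATAAA on either strand was found for 5 members, Dkk1, Dkk2, Fzd1, Wif1 and Wnt11, and in 12.4% of all windows. Wnt11 had both sets of letters, which lie apart in its window. Of the 6 genes with a match, Dkk1 had no fragment, Wif1 averaged 0.0634 FPKM and Fzd1, the highest of them, 22.4. The 5 members above Fzd1 in level were not among the matches. Only 32 of the 50 members had a window, however, and a member without one could not match. A match is a run of letters and no evidence of a bound site.

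The rest of the pathway was described from a list of 53 genes, of which 47 were tested and 0 were called by limma. At an unadjusted p under 0.05, 3 were higher and 1 was lower in Crlf2-/- hearts, beside 3.31% and 3.24% of all tested genes, and the median log2 fold change was 0.04. Groups did not overlap for 3 higher and 2 lower genes of the 47, beside 5.57% and 6.15% of all. Ptk7, a co-receptor of planar cell polarity, read 12.5, 14.8 and 14.5 FPKM in WT and 17.2, 16.4 and 19.2 in Crlf2-/- hearts (0.34, adjusted p 0.547), without overlap. Sost, the LRP inhibitor sclerostin, read 0.190, 0.331 and 0.310 in WT and 0.528, 0.392 and 0.561 in Crlf2-/- hearts (0.67, adjusted p 0.646), also without overlap. Wisp1, a matricellular target of the pathway, read 38.4, 45.1 and 55.1 in WT and 66.8, 54.8 and 56.7 in Crlf2-/- hearts (0.37, adjusted p 0.729), where the groups overlapped. Ror1, a receptor for Wnt5a, read 5.30, 6.51 and 6.33 in WT and 5.51, 3.91 and 3.71 in Crlf2-/- hearts (-0.47, adjusted p 0.614), with the first Crlf2-/- heart inside the WT range.

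The most abundant genes of each group on that list did not pass the test either. Wls, the carrier that Wnt ligands need for secretion, averaged 30.2 FPKM (log2 fold change 0.12). Ctnnb1, which encodes β-catenin, read 108, 109 and 103 in WT and 101, 96.0 and 97.4 in Crlf2-/- hearts, so the groups did not overlap although the log2 fold change was only -0.12 (limma adjusted p 0.956). Pygo2, a nuclear partner of β-catenin, averaged 12.9 (-0.13). Igfbp4, an extracellular binder of insulin-like growth factors and Frizzleds, averaged 115 (-0.22). Cthrc1, a secreted glycoprotein of activated fibroblasts, averaged 407 (0.25), and Wisp2, a target gene, 240 (-0.09). The mean of Cthrc1 over all libraries thus exceeded that of Sfrp2 (407 against 362 FPKM), but their ranges overlapped. Cthrc1 lay below Sfrp2 in WT replicates 1 and 3 (322 against 341 and 357 against 420 FPKM). In the other libraries Cthrc1 lay above Sfrp2. Of the 8 tested target genes, 4 had a positive and 4 a negative log2 fold change, with a median of 0.00233. The 10 genes of signal transduction and β-catenin degradation summed to 177 to 180 FPKM in WT and 168 to 174 in Crlf2-/-, without overlap. Ctnnb1 held most of that sum. The 8 nuclear effectors, Pygo2 among them, summed to 32.8 to 33.2 and 30.8 to 32.4, also without overlap. Sums of the other kinds of gene on that list overlapped, and no sum was tested.

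The 6 hearts also differed among themselves in ways the groups did not share. Of the 34 tested genes, 11 were highest in the third WT heart and 13 lowest in the first WT heart. The first Crlf2-/- heart held the highest value of 9 genes and the second Crlf2-/- heart that of 2. The range among WT hearts alone was wide for several members, as from 1.32 to 3.36 FPKM for Wnt4 and from 45.0 to 69.1 for Dkk3.

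**Figure D5:**
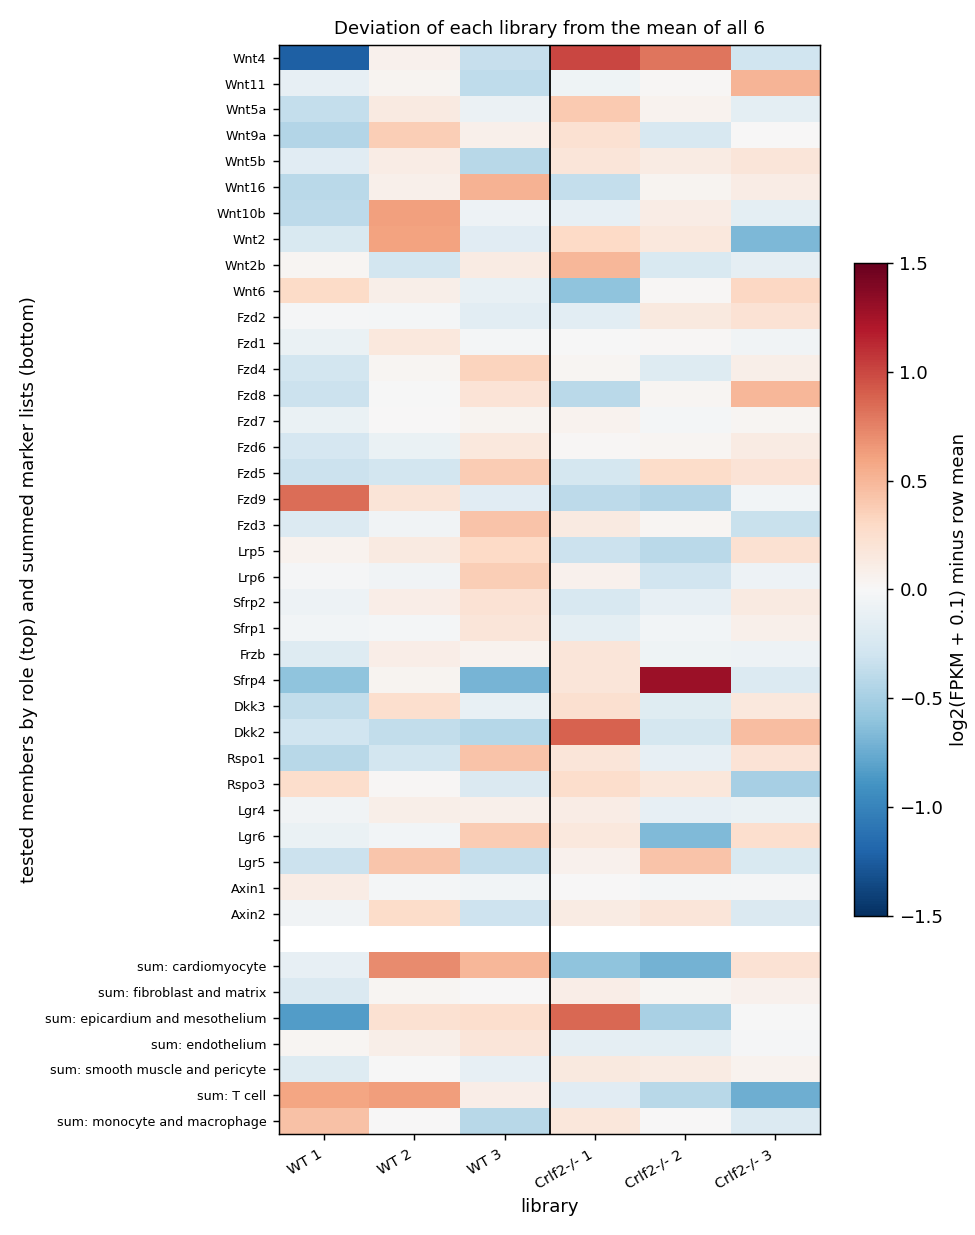
Deviation of each library from the mean of all 6 on the log2(FPKM + 0.1) scale, for the 34 tested genes by role and, at the bottom, for the summed level of 7 marker lists. Red is above and blue below the mean, and the line parts the 3 WT libraries from the 3 Crlf2-/- libraries. Wnt4 and the epicardial and mesothelial sum are both low in WT 1 and high in Crlf2-/- 1, and Sfrp4 is high in Crlf2-/- 2, whereas most other genes show no shared colour within a group.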

How the data were processed

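RNA-seq libraries of 3 WT and 3 Crlf2-/- mouse hearts were analysed, grouped by the genotype labels. Per the study's methods, the authors trimmed reads with fastp, aligned them with HISAT2 2.0.5 and counted them with featureCounts, and the deposited table holds the authors' FPKM per gene. The submitters' processing notes list mm10, and hg38 beside it, as builds. Multiplying FPKM by the deposited gene length gave whole fragments for 100% of nonzero values (tolerance at most 0.1 fragment). As the table holds FPKM, a test on the log scale was chosen as the main one in place of the paper's test on counts. Tests on the recovered fragments were run as alternatives.

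Libraries were scaled with trimmed means of M values. limma 3.58.1 (R 4.3.3), with trend and robust set, tested log2(FPKM + 0.1) of the 15520 genes that had 10 or more fragments in 3 or more libraries and a total of 15 or more, with Benjamini-Hochberg adjustment over all of them. Fold changes are on that log2 scale, which understates changes of low genes. Calls required an adjusted p no higher than 0.05 and a log2 fold change of 0.5 or more in either direction. At these thresholds the paper's DESeq2 test on counts reported far more genes than the 2 that limma called here. Limma was thus the stricter test. A negative binomial test with a normal reference, chosen after seeing the data, called 270. Labels do not say more of the replicates than that they are separate samples. Alternatives were other scalings, filters, pseudocounts of 0.01 and 1, voom, a negative binomial Wald test, a fit without haemoglobin and mitochondrial genes, a block on replicate number, and fits without each library in turn.

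On simulated data with 196 changed genes among 15281, limma called 62 of 95 genes changed by 1 log2 unit. It also called 96 of 101 changed by 2, and 10 unchanged genes. Each gene was drawn on its own in that simulation, without shifts shared by many genes of a heart. The recovery may therefore not hold for the real hearts.

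Genes named individually were those with an unadjusted p under 0.05 or groups that did not overlap, the 3 most abundant of each role class and its largest log2 fold change, with other members by level or range. Of the other pathway genes, those with an unadjusted p under 0.05 and the most abundant of each list were named. The members, gene lists and marker lists were chosen with earlier results of these data known. Python 3.11.15 and scipy 1.17.1 gave the exact permutation tests. Protein sequences were not used here.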

Additional observations from a re-analysis of the deposited data

How the results depend on the processing

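Depth and replicate number set the limits: with 3 hearts a group, only 10 of the 34 tested members had a 95% interval within 0.5 of 0 on the log2 scale, and members under 1 FPKM rested on few fragments (34 to 57 per library for Axin2). Across all genes 2 were called, against 6 with no filter on low genes, 1 with at least 10 fragments in every library, 10 by the negative binomial test with a t reference and 1 to 14 when one library was left out (14 without the first Crlf2-/- library, 7 without the third WT library). A normal reference for that test, chosen after seeing the data, called 270 genes and 1 member, Dkk2 (adjusted p 0.0491; 0.0491 to 1 over all alternatives), but also called 29 of 15284 unchanged genes in simulated data. Among members, 2 had an unadjusted p under 0.05, against 1 by voom (Dkk2, higher), 3 by the negative binomial test (Dkk2, Sfrp4, Wnt4), 4 with the normal reference (also Fzd9, the 1 lower) and 0 to 3 when one library was left out (0 to 3 higher, 0 to 1 lower; 0 without the first Crlf2-/- library, 1 without the second, or without the first WT library). With no filter, 1 was higher (Dkk2) and 1 lower (Wnt1). Same-numbered libraries correlated at -0.02, 0.12 and 0.12 in their deviations, and not every library correlated best with its own number, so the numbers were not taken as pairs; the replicate block gave 4 genes called and 4 members with an unadjusted p under 0.05 (Dkk2, Sfrp4 and Wnt4 higher, 1 lower, Lrp5). Of the other pathway genes, 2 to 3 were higher at that threshold when one library was left out. Without the most abundant member, the log2 ratio of class sums moved from 0.16 to 0.84 for Dickkopf proteins and from -0.024 to 0.0555 for Axins, both past the spread between replicates. It moved within that spread from 0.34 to 0.13 for ligands, 0.0438 to 0.013 for Frizzleds, -0.26 to -0.21 for LRP co-receptors, -0.11 to -0.0489 for antagonists, 0.0906 to 0.00829 for R-spondins and -0.0597 to -0.0144 for their receptors. Of 576 comparisons of a member's log2 fold change with an alternative, 546 kept direction and side of the threshold, 1 gained a call and 29 changed sign, all of them when one library was left out and all for 18 members whose main value was at most 0.18 in size; the cause was not tested. Their ranges were -0.32 to 0.16 for Wnt2, -0.14 to 0.22 for Wnt2b, -0.38 to 0.0772 for Wnt6, -0.24 to 0.18 for Wnt9a, -0.33 to 0.18 for Wnt10b, -0.37 to 0.10 for Wnt16, -0.0887 to 0.0455 for Fzd1, -0.25 to 0.0699 for Fzd3, -0.21 to 0.10 for Fzd4, -0.0117 to 0.0663 for Fzd7, -0.15 to 0.30 for Fzd8, -0.0643 to 0.0844 for Frzb, -0.00299 to 0.31 for Dkk3, -0.19 to 0.20 for Rspo3, -0.00117 to 0.42 for Lgr5, -0.33 to 0.13 for Lgr6, -0.0530 to 0.0216 for Axin1 and -0.0850 to 0.21 for Axin2. The other 16 tested members kept their sign in every alternative run, but not their size when one library was left out: 0.64 to 1.40 for Wnt4, 0.0625 to 0.33 for Wnt5a, 0.19 to 0.45 for Wnt5b, 0.13 to 0.42 for Wnt11, 0.0614 to 0.25 for Fzd2, 0.011 to 0.37 for Fzd5, 0.0203 to 0.23 for Fzd6, -0.80 to -0.31 for Fzd9, -0.52 to -0.21 for Lrp5, -0.29 to -0.0706 for Lrp6, -0.13 to -0.00154 for Sfrp1, -0.26 to -0.0781 for Sfrp2, 0.41 to 1.16 for Sfrp4, 0.47 to 1.04 for Dkk2, 0.00681 to 0.43 for Rspo1 and -0.15 to -0.0283 for Lgr4.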

Other observations

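The second Crlf2-/- library, where Myl4 and Sln stood apart, also held the most fragments of several members too low to be tested. Fzd10, a Frizzled with little adult expression, had 22 fragments there and 0 to 3 in each other library. Wnt7a had 13 there against 1 to 3 elsewhere, and Wif1, a secreted Wnt-binding antagonist, had 9 against 0 to 4. Wnt9b was the reverse, with 1 fragment in that library and 6 to 14 in the others. These libraries were of like depth, and the source of these fragments was not tested.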
